A study of Homo sapiens with 3 samples.

Results

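The transcripts described here are those of 9 genes of nonsense-mediated mRNA decay (NMD): UPF1, UPF2, UPF3A, UPF3B, SMG1, SMG5, SMG6, SMG8 and SMG9. They were chosen by name and not by a measured value, although earlier results of these data were known at the time. RBM17 eCLIP clusters were found in 8 of the 9, out of 10872 genes with a cluster in replicate 2. SMG8 had none. RBM17 (SPF45) is a splicing factor, and eCLIP sequences the RNA fragments that ultraviolet light has crosslinked to an immunoprecipitated protein. K562 cells, an established chronic myeloid leukemia line, were the source of every sample, and the labels give no treatment and no genetic change. They gave 2 RBM17 eCLIP libraries, both made with a pair of RBM17 antibodies after irradiation at 400 mJ/cm2, and 1 size-matched input library, which enters here only through the folds of the authors.

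NMD removes mRNAs on which translation ends too early. The helicase UPF1 is recruited to the terminating ribosome, UPF2 and UPF3 link it to the exon junction complexes that splicing leaves on the mRNA, and the kinase SMG1, held in check by SMG8 and SMG9, phosphorylates it. Phosphorylated UPF1 is bound by SMG6, an endonuclease that cuts the mRNA, and by SMG5, an adaptor that leads to decay of the mRNA and to dephosphorylation of UPF1. The pathway also limits splicing factors whose transcripts include a poison exon, an exon that carries a premature stop codon.

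The tables of the 2 libraries differ in form. For each cluster of replicate 1 there is a log2 fold over the input and a −log10 p, without reads. For each cluster of replicate 2 there is a number of reads, at least 3, and a gene, without comparison with the input. A reproducible peak is an interval that the authors called over both replicates, with 1 log2 fold for the pair. Each gene was taken as the span from its first to its last replicate 2 cluster, and replicate 1 clusters and peaks belonged to it when they overlapped the span on the same strand. A replicate 1 cluster is called enriched below when its log2 fold was at least 3 and its −log10 p at least 3. No value therefore has a replicate error, and no test between replicates or groups was possible. Nothing in the labels states that the 2 libraries came from separate cultures. Intervals given with counts and shares are exact 95% intervals and cover counting error only. Positions are 1-based in hg19, and no sequence of this build was used.

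Over the whole series, replicate 1 held 137095 clusters, replicate 2 held 114848 distinct clusters with 1336569 reads, and 866 peaks were called reproducible. Of 8 markers of erythroid leukemia cells, all 8 had a replicate 2 cluster, whereas 3 of 8 markers of other cell types had one. Those 3 were KRT8, with 104 reads, EPCAM, with 11, and LYZ, with 4.

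Among the NMD factors, RBM17 signal over the input was concentrated on UPF1, the helicase at the centre of the pathway, and on SMG1, the kinase that phosphorylates it. UPF1 alone held a reproducible peak, so that 1 of the 8 factors with a cluster had one, beside 4.07% of all genes with a replicate 2 cluster. All 8 also had replicate 1 clusters in their span, as did 78.4% of all genes. UPF1 and SMG1 held every enriched replicate 1 cluster, 10 and 13 respectively, and 2 of 8 factors having at least 1 compares with 16.2% of all genes. A count of 10 or more enriched clusters, which both reached, was found in 1.69% of genes, a number set at the count of UPF1 after it had been seen and not matched for depth. Both also had an enriched cluster that overlapped a replicate 2 cluster, as did 11.4% of genes. The other 6 factors with clusters had none among 101 replicate 1 clusters. With so few genes these shares describe the factors and were not tested.

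**Figure D1:**
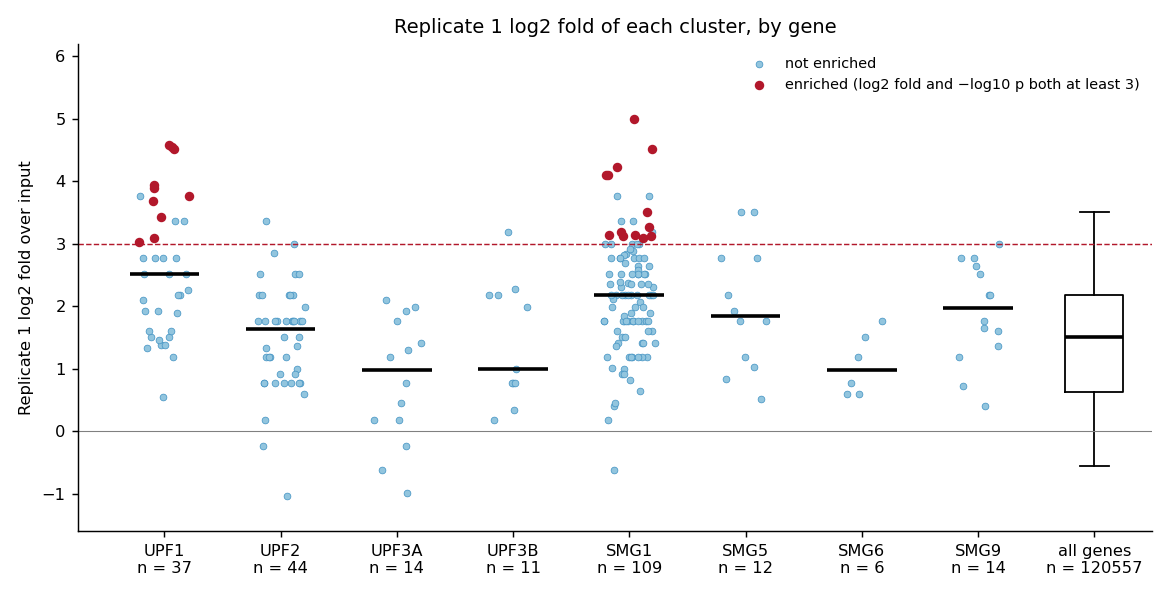
Log2 fold over the input (y axis) of each replicate 1 cluster in 8 NMD factor transcripts (x axis), with enriched clusters in red, the median of each gene as a black line, and a box for the 120557 clusters in the spans of all genes (box, quartiles; whiskers, 5% to 95%). Red points occur in UPF1 and SMG1 alone, and the medians run from 0.98 in UPF3A and SMG6 to 2.51 in UPF1.

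UPF1 lies on the plus strand of chromosome 19, and its replicate 2 clusters spanned chr19:18942798-18978153. Replicate 1 had 37 clusters in this span, with log2 folds from 0.55 to 4.58 and a median of 2.51. Replicate 2 had 29 clusters, which held 223 reads (195 to 254), with a median of 7 reads and at most 14 in a cluster. None of its replicate 1 clusters was below the input, and 10 of the 37, or 27.0%, were enriched, where 5.64% of replicate 1 clusters in all genes were. A replicate 1 cluster overlapped 13 of its 29 replicate 2 clusters, or 44.8% (26.4 to 64.3%), beside 32.0% over all genes.

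The reproducible peak of UPF1 covered 71 bp at chr19:18963179-18963249, and the authors annotated it to a 5′ splice site and the intron next to it. Its log2 fold over both replicates was 3.86, with a −log10 p of 4.35. In replicate 1 the same interval had a log2 fold of 4.56 and a −log10 p of 16.6, the largest −log10 p of any cluster in the NMD factors. The replicate 2 cluster overlapping it held 13 reads. It was an ordinary peak by its fold, since 401 of the 866 peaks had a larger one and the median over all peaks was 3.80. Its −log10 p was below the median of 5.54.

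The peak was one of a row of enriched clusters. The replicate 1 clusters that abut it on either side, at chr19:18963119-18963178 and chr19:18963250-18963294, had log2 folds of 3.68 and 4.51. The first of these overlapped a replicate 2 cluster with 10 reads and the second overlapped none. In all, 9 of the 10 enriched clusters of UPF1 fell within 1717 bp, at chr19:18961972-18963688, which is 4.86% of the span and lies 54.3 to 59.0% of the way along it. Runs of at least 9 enriched clusters, each less than 2000 bp from the next, occurred in 1.01% of genes. The distance and the length of the run were chosen after the clusters had been seen, and the genes were not matched for depth. The log2 folds of the 9 ranged from 3.04 to 4.58.

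Replicate 2 covered only part of this stretch of UPF1. It had 4 clusters there, of 9 to 13 reads, with 44 reads in all or 19.7% of the reads of the gene. They overlapped 3 of the 9 enriched clusters, and the cluster with the largest fold, 4.58 at chr19:18962030-18962110, had no replicate 2 counterpart. The tenth enriched cluster, at chr19:18977473-18977514 near the 3′ end of the span, had a log2 fold of 3.10 and lay under the UPF1 cluster with the most replicate 2 reads, 14 at chr19:18977466-18977548. Both replicates thus marked the peak and the 3′ cluster of UPF1, while 6 of the 10 enriched clusters came from replicate 1 alone.

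**Figure D2:**
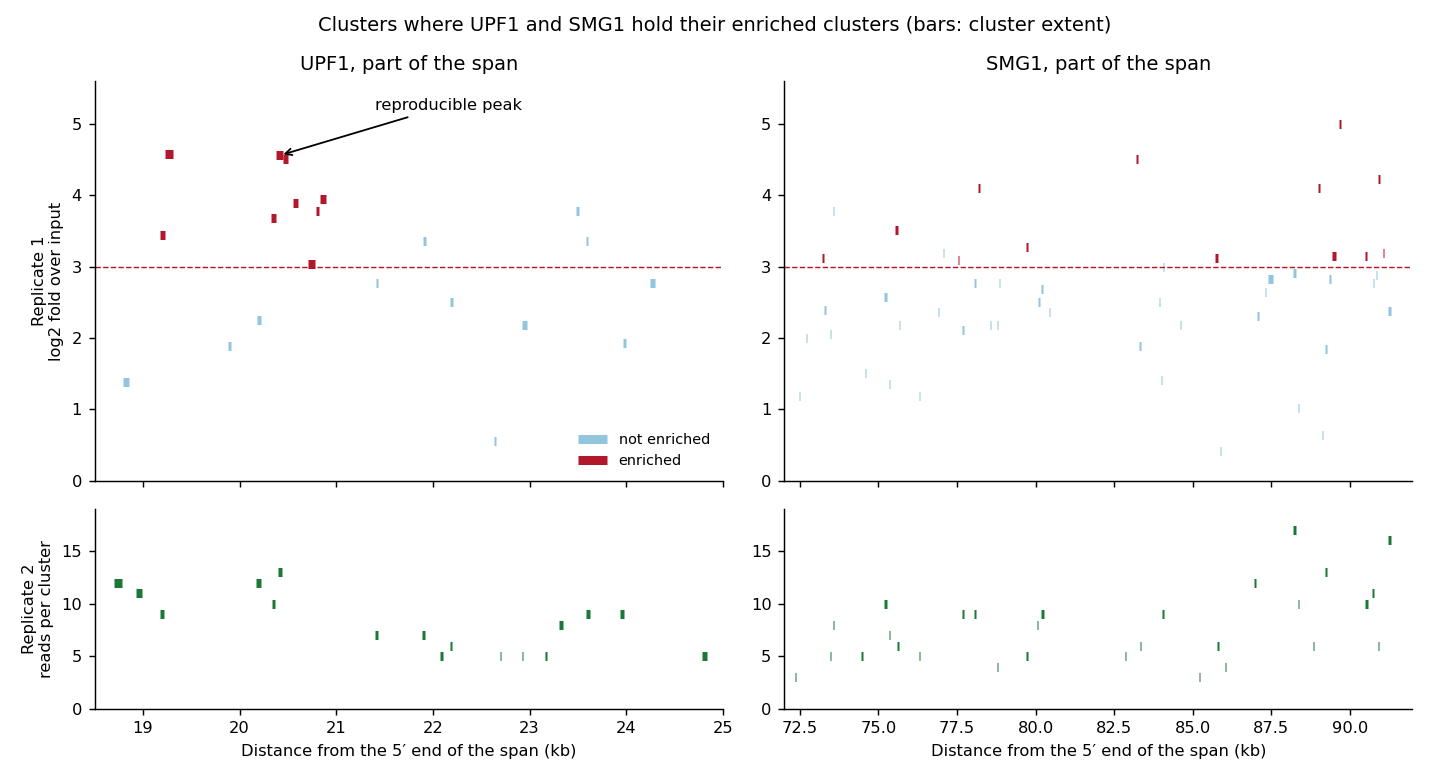
Close view of the stretches of UPF1 and SMG1 that hold their enriched clusters, with log2 fold over the input for replicate 1 and reads for replicate 2 (y axes) against the distance in kb from the 5′ end of the span (x axis); each bar covers the extent of a cluster. In UPF1 9 enriched clusters stand within 1717 bp around the peak, and in SMG1 13 spread over 17.9 kb.

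UPF2, which bridges UPF1 and UPF3, had many weak clusters. Replicate 1 had 44, with log2 folds from −1.03 to 3.36 and a median of 1.64. Replicate 2 had 26 clusters with 105 reads (85.9 to 127) and at most 7 in a cluster, over a span of 121.5 kb on the minus strand at chr10:11963279-12084786. The replicates met in few places, since 4 of the 26 replicate 2 clusters, or 15.4% (4.36 to 34.9%), overlapped a replicate 1 cluster. The best supported of these, chr10:12070748-12070854, had a log2 fold of 2.85 with a −log10 p of 3.80 and 4 reads, just under the fold of 3 required of an enriched cluster. The replicate 2 cluster with 7 reads, chr10:11985737-11985807, had no replicate 1 cluster.

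UPF3A and UPF3B are paralogs that bind UPF2 and the exon junction complex, and neither had an enriched cluster. UPF3A, on the plus strand at chr13:115047256-115071016, had 19 replicate 2 clusters with 150 reads (127 to 176), and UPF3B, on the minus strand at chrX:118968347-118986829, had 12 with 43 reads (31.1 to 57.9). In replicate 1 UPF3A had 14 clusters with log2 folds from −0.98 to 2.10 and UPF3B had 11 with folds from 0.19 to 3.19, with medians of 0.98 and 1.00. UPF3A thus had as many replicate 2 reads per kb of gene as UPF1, 6.19 (5.24 to 7.27) against 6.15 (5.37 to 7.01), and no enriched cluster.

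The reads of UPF3A gathered near its 5′ end, with 76.0% of them in the first of 3 equal parts of the span. Its cluster with the most reads, 17 at chr13:115048514-115048571, had a log2 fold of 1.41 in replicate 1, and its largest fold shared by both replicates was 2.10, at chr13:115047590-115047660 with 8 reads. Of 6 UPF3A clusters with at least 10 reads, 3 had a replicate 1 cluster, at folds from −0.23 to 1.93. A high number of reads in UPF3A therefore did not come with a high fold over the input. In UPF3B the largest fold was also the largest shared one, 3.19 at chrX:118986201-118986237 with 3 reads, and the cluster with the most reads, 7 at chrX:118985589-118985657, had a fold of 2.00.

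SMG1, the kinase, had the most clusters and reads of the 9 transcripts. It lies on the minus strand at chr16:18816372-18936971, a span of 120.6 kb. Replicate 1 had 109 clusters there, with log2 folds from −0.62 to 4.997 and a median of 2.19, and replicate 2 had 77 clusters with 442 reads (402 to 485), which placed SMG1 at the 96.9 percentile of genes by reads. Of its 77 replicate 2 clusters 41, or 53.2% (41.5 to 64.7%), met a replicate 1 cluster. This share was the highest among the factors, with SMG9 next at 50.0% (23.0 to 77.0%). In the other direction 40 of its 109 replicate 1 clusters, or 36.7%, met a replicate 2 cluster. That share was higher in UPF3A, SMG6 and SMG9, at 50.0% each, and in UPF3B, at 45.5%. Of its replicate 1 clusters 13, or 11.9%, were enriched, and 6 of these overlapped a replicate 2 cluster.

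The enriched clusters of SMG1 lay within 17.9 kb, at chr16:18845868-18863777, between 60.7 and 75.5% of the way from the 5′ end of the span. This stretch is 14.9% of the span and held 227 replicate 2 reads, 51.4% of those of the gene. Of the 13, 6 stood within 2096 bp at chr16:18845868-18847963, and runs of at least 6 were found in 2.12% of genes. This length was set at the count of SMG1 after it had been seen, and the genes were not matched for depth. The largest log2 fold of all NMD factor clusters, 4.997 at chr16:18847255-18847315, belonged to this run and had no replicate 2 cluster. The largest shared fold was 4.23, at chr16:18846011-18846079, with a −log10 p of 8.61 and 6 reads. The SMG1 cluster with the most reads, 17 at chr16:18848683-18848762, had a fold of 2.91 with a −log10 p of 5.79.

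SMG1 nevertheless had no reproducible peak. Of the genes with 10 or more enriched clusters, 35.3% had none, so that SMG1 was one of 65 such genes among 184. Of the genes with an enriched cluster that overlapped a replicate 2 cluster, 34.6% had a peak. The positions of SMG1 that can be told from other loci were unequal along the gene. Several partial copies of SMG1, the SMG1P pseudogenes, lie elsewhere on chromosome 16, and in hg38 30.1% of the 31-base words of SMG1 also occurred in an SMG1P copy, beside 1.01 to 2.83% for the other factors. In 3 equal parts of the gene from the 5′ end these shares were 49.4, 39.7 and 1.00%, a measure added after the data had been examined. Words found anywhere else in the genome, copies included, made up 61.8, 49.0 and 26.4% of these parts, beside 7.36 to 25.4% of the whole gene in the other factors. The first of 3 equal parts of the SMG1 span held 10 replicate 1 clusters and no enriched one, the middle 52 with 5 enriched and the last 47 with 8. The 5 enriched clusters of the middle part all lay 60.7 to 66.1% of the way along the span, next to the last part. Word shares were taken only over the 3 equal parts, so that of this stretch was not measured. How reads that fit both SMG1 and a copy were placed is not given. Whether the listed reads came from SMG1 itself, and the part of the copies in these values, was not tested. The run of 6 lay in the last part, where 1.00% of words occurred in a copy and 26.4% anywhere else.

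**Figure D3:**
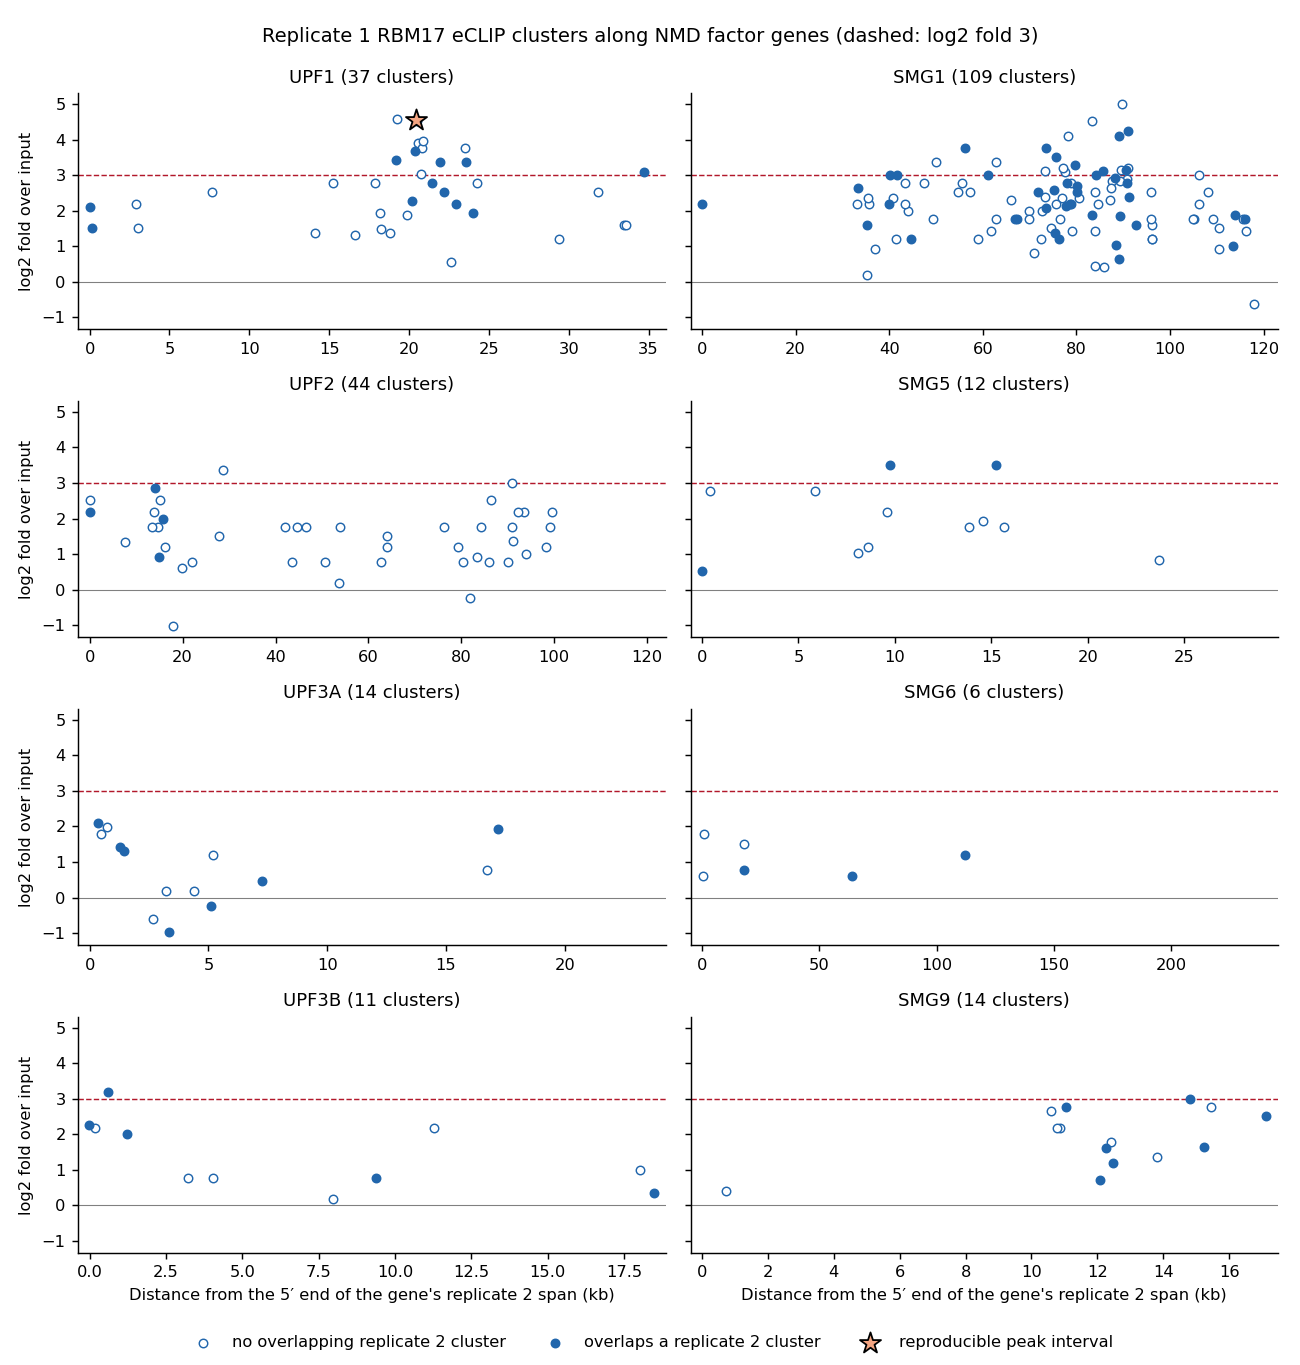
Log2 fold over the input (y axis) of replicate 1 clusters along 8 NMD factor transcripts, against the distance in kb from the 5′ end of the span (x axis); filled points overlap a replicate 2 cluster, the dashed line marks a fold of 3, and the star marks the interval of the UPF1 peak. Clusters at or above the line number 13 in UPF1 and 18 in SMG1, whereas SMG5 has 2 and UPF2 and UPF3B have 1 each.

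SMG8 and SMG9 hold the SMG1 kinase in check, and their transcripts differed in whether any cluster was found. SMG8, a short gene of 5.84 kb with 4 exons in the annotation, had no replicate 2 cluster and so no span in which replicate 1 could be read. A cluster of fewer than 3 reads would not have been listed, so this does not show that RBM17 was absent from it. SMG9, on the minus strand at chr19:44235616-44252750, had 14 clusters in each replicate. In replicate 1 its clusters lay between log2 folds of 0.41 and 2.997 (median 1.98), and its 89 replicate 2 reads (71.5 to 110) lay mostly toward the 3′ end, with 78.7% of them in the last of 3 equal parts of the span.

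The replicates met often in SMG9, where 7 of the 14 replicate 2 clusters, or 50.0%, had a replicate 1 cluster. All 3 SMG9 clusters with at least 10 reads were among them, at log2 folds from 1.19 to 2.77. The cluster named for its reads, 14 at chr19:44240456-44240501, had a fold of 1.60. The largest shared fold, 2.997 at chr19:44237928-44237955 with 6 reads, had a −log10 p of 1.53 and was not enriched. The other 7 SMG9 clusters of each library had no counterpart in the other library.

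SMG5, an adaptor that binds phosphorylated UPF1, had few clusters. On the minus strand at chr1:156223247-156252504, it had 12 replicate 1 clusters with log2 folds from 0.51 to 3.51 and a median of 1.85, and 10 replicate 2 clusters with 83 reads (66.1 to 103). Its largest fold, 3.51 with a −log10 p of 2.39, was shared by 2 clusters, chr1:156237265-156237285 with 7 reads and chr1:156242767-156242800 with 6, and this −log10 p was under the value of 3 required of an enriched cluster. The SMG5 cluster with the most reads, 16 at chr1:156243152-156243215, had no replicate 1 cluster. Another SMG5 cluster with 15 reads met a replicate 1 cluster at a fold of 0.51.

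SMG6, the endonuclease, was the longest gene and the one with the fewest reads per kb of gene length. Its span on the minus strand at chr17:1963327-2203960 reached 240.6 kb. Replicate 1 had 6 clusters in it, with log2 folds from 0.60 to 1.77, and replicate 2 had 13 with 54 reads (40.6 to 70.5). None of its replicate 1 clusters had a −log10 p above 0.580. The largest shared fold was 1.19, at chr17:2091772-2091810 with 3 reads, and the cluster with the most reads, 7 at chr17:1968834-1968922, had no replicate 1 cluster. SMG6 was also the member with the fewest replicate 1 clusters for each replicate 2 cluster, 0.462, whereas UPF2 had 1.69.

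**Figure D4:**
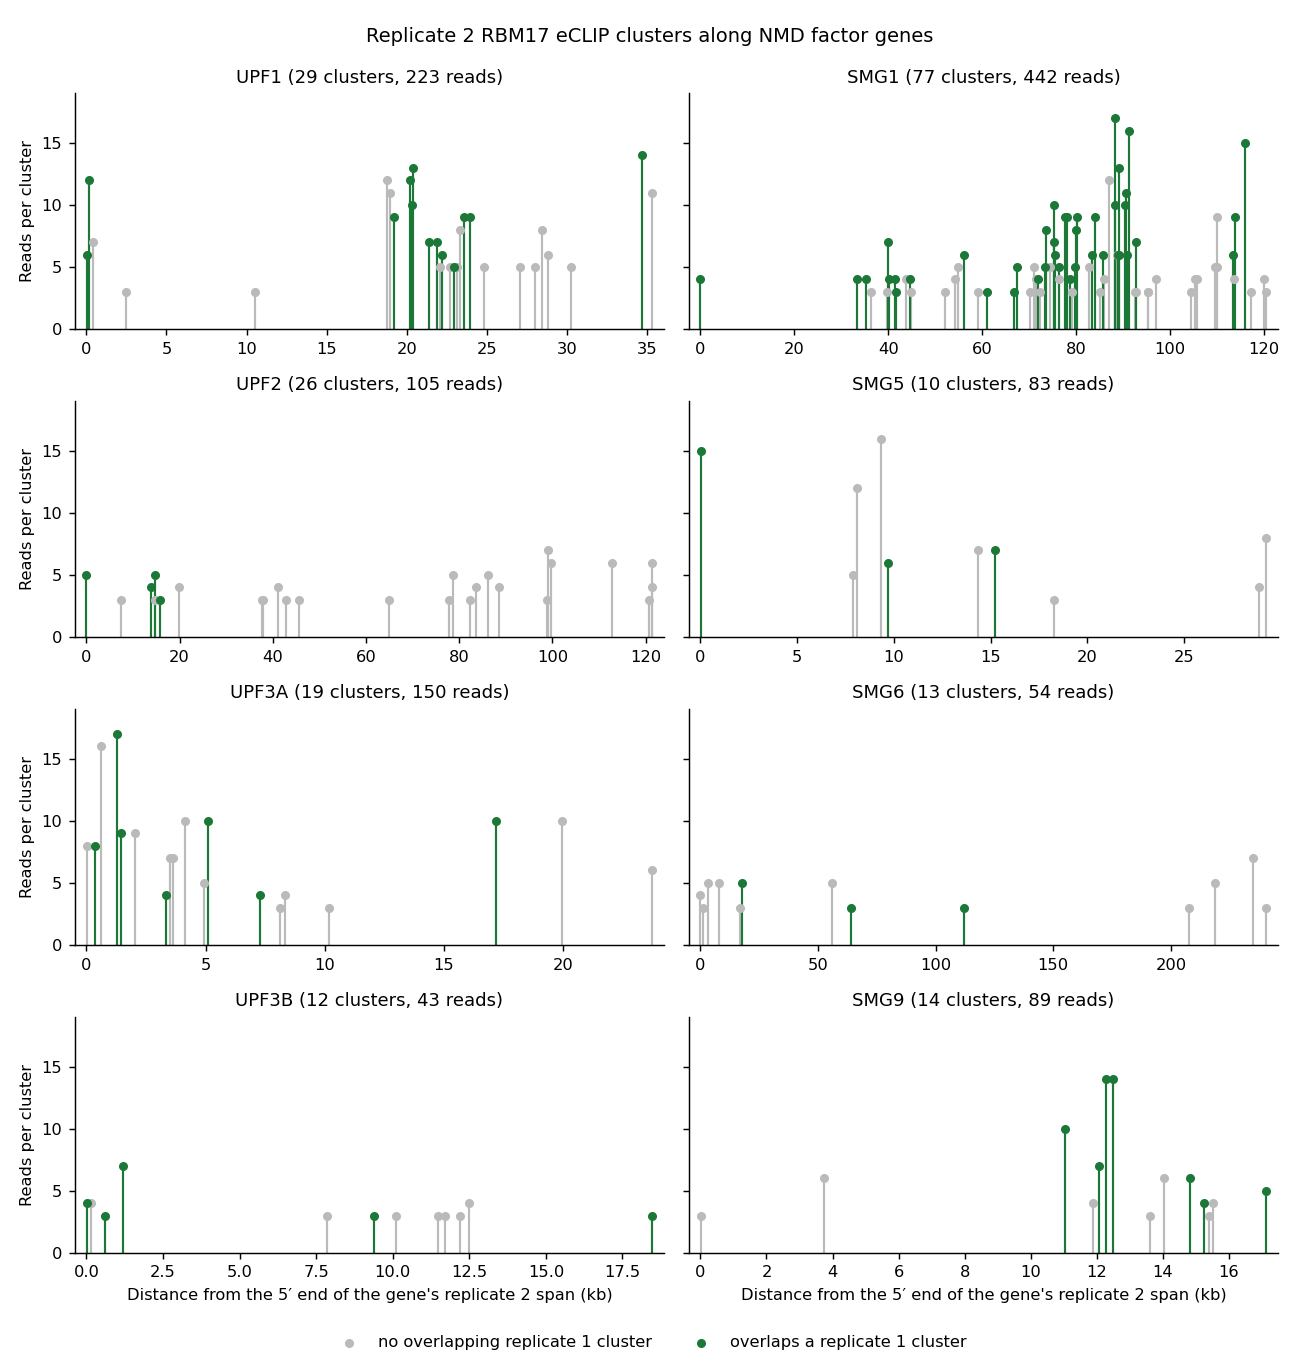
Reads of each replicate 2 cluster (y axis) along the same 8 transcripts, against the distance in kb from the 5′ end of the span (x axis); green marks clusters that overlap a replicate 1 cluster. Reads per cluster reach 17 in UPF3A and SMG1 and 7 in UPF2, UPF3B and SMG6, and gather near the 5′ end in UPF3A and near the 3′ end in SMG9.

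Per kb of gene length, the replicate 2 reads placed UPF3A and UPF1 first, at 6.19 and 6.15. SMG1 followed with 3.64 (3.31 to 3.99), SMG9 with 3.30 (2.65 to 4.06), SMG5 with 2.47 (1.97 to 3.06) and UPF3B with 2.27 (1.64 to 3.05). UPF2, at 0.853 (0.697 to 1.03), and SMG6, at 0.221 (0.166 to 0.289), came last. The counting intervals overlapped between UPF3A and UPF1, between SMG1 and SMG9, between SMG9 and SMG5, and between SMG5 and UPF3B, and not between the other neighbours in this order. These reads are not relative to the input, so the amount of a transcript and its binding by RBM17 cannot be told apart in them. The order also depended on the length used. Per kb of mRNA UPF2, at 20.3, came above UPF3B, at 18.4, SMG5, at 18.2, and SMG9, at 16.2, and SMG6 stayed last at 9.04. Per kb of span SMG9, at 5.19, came above SMG1, at 3.67.

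Read together, the clusters of the NMD factors lay somewhat higher over the input than those of all genes, and the median did not once UPF1 and SMG1 were left out. The median log2 fold of their 247 replicate 1 clusters was 1.93 (interquartile range 1.25 to 2.67), beside 1.51 over all genes (0.64 to 2.19), and it was 1.51 without UPF1 and SMG1. Of the 247, 23 or 9.31% (5.99 to 13.6%) were enriched, beside 5.64% over all genes. Below the input were 6 or 2.43% (0.897 to 5.21%), beside 11.5% over all genes, and 5 of 101 or 4.95% without UPF1 and SMG1. The 6 were 3 of UPF3A, 2 of UPF2 and 1 of SMG1. Clusters of 1 gene share its transcript and are not independent, and no test was made on these shares.

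Whether a replicate 2 cluster of an NMD factor was met by a replicate 1 cluster went with its reads. It was met in 22 of 89 clusters with 3 or 4 reads, or 24.7%, in 41 of 82 with 5 to 9 reads, or 50.0%, and in 20 of 29 with at least 10 reads, or 69.0%. Over all genes the same shares were 15.9, 35.4 and 67.0%. In total 83 of the 200 replicate 2 clusters were met, or 41.5% (34.6 to 48.7%), and the share was 30.9% without UPF1 and SMG1. In the other direction 82 of the 247 replicate 1 clusters, or 33.2%, met a replicate 2 cluster, beside 29.8% over all genes. Across the 83 shared clusters, which come from 8 transcripts, the reads in replicate 2 followed the fold in replicate 1 only weakly, with a Spearman correlation of 0.105, and 4 of the 20 shared clusters with at least 10 reads had a fold of at least 3. Of these 4, 3 were in UPF1 and 1 in SMG1.

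**Figure D5:**
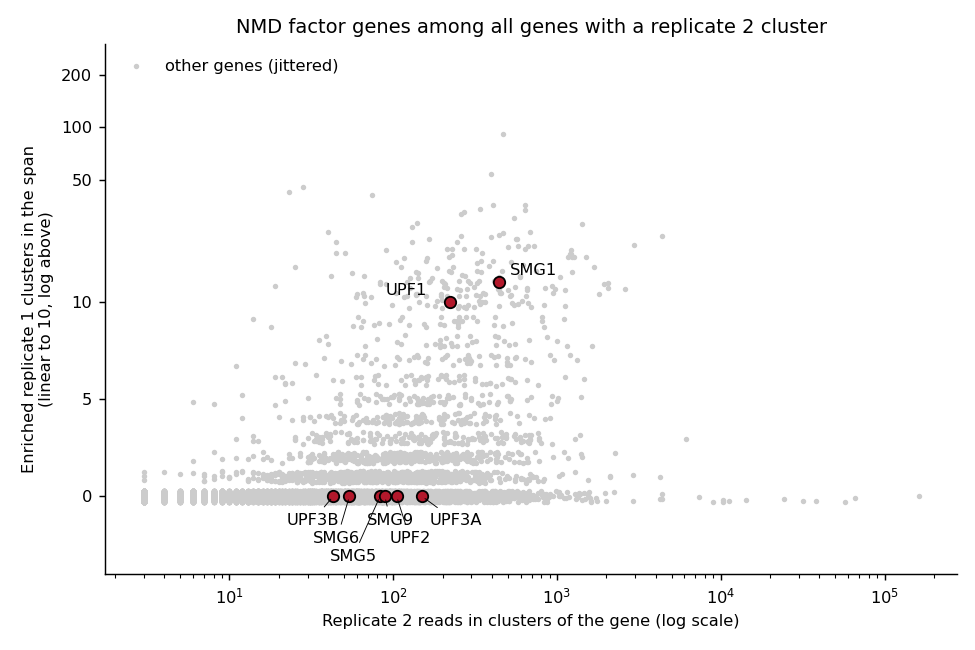
Replicate 2 reads (x axis, log scale) against the number of enriched replicate 1 clusters (y axis, linear to 10 and log above) for all genes with a replicate 2 cluster in grey, jittered, and the NMD factors as labelled points. UPF1 and SMG1 stand at 10 and 13 enriched clusters with 223 and 442 reads, and the other 6 factors at 0 with 43 to 150 reads.

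Depth differed between the factors and other genes, and it moved with these counts. The factors had a median of 97 replicate 2 reads per gene, beside 33 over all genes. Among the 2379 genes with at least 100 reads, 16.3% had a reproducible peak and 44.4% an enriched cluster. Of the 4 factors in this class, UPF1, UPF2, UPF3A and SMG1, 1 had a peak and 2 had an enriched cluster. The part of depth in the difference between UPF1 or SMG1 and the other factors was not tested.

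Further genes that work with the NMD factors were read by the same rule. In the exon junction complex and its partners, 6 of 7 genes had clusters. Enriched clusters were found in EIF4A3, the helicase that clamps the complex to RNA, with 2, and in CASC3, another core subunit, with 7. CASC3 held 1 peak, at chr17:38324016-38324095, with a log2 fold of 4.19, and had 103 replicate 2 reads. Among 7 termination, cap and tail binding factors, ETF1, the release factor that reads stop codons, had 6 enriched clusters and none had a peak. Among 8 decay and decapping factors, XRN1, the cytoplasmic 5′ to 3′ exonuclease, had 9 enriched clusters, EXOSC10, a catalytic subunit of the nuclear exosome, had 12, EDC4, a decapping scaffold, had 1, and none had a peak. The 9 cofactors included NBAS with 6 enriched clusters and the helicase MOV10 with 5, and MOV10 held 2 peaks, with log2 folds of 4.87 and 3.53, and 274 reads. Outside MOV10, few of these enriched clusters overlapped a replicate 2 cluster of the gene, whereas 2766 of 6804 did over all genes. The number was 3 of 5 in MOV10, 2 each in CASC3, ETF1, EXOSC10 and NBAS, and 0 in EIF4A3, XRN1 and EDC4. In the order given, 2 of 7, 1 of 7, 3 of 8 and 2 of 9 genes of these groups had an enriched cluster. Only CASC3 and MOV10 among them had a peak. Of all genes with a replicate 2 cluster, 16.2% had an enriched cluster and 4.07% a peak. With at least 100 reads these shares were 44.4% and 16.3%. The groups are small and were not matched for depth, and their shares were not tested.

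RBM5, an RNA-binding splicing regulator, and ARAP1 were among the 3 genes most like UPF1, out of 8524 with clusters in both replicates. Likeness was the standardised distance over replicate 2 reads and clusters and the median and largest replicate 1 fold, within these 2 libraries. UPF1 had 223 reads and 10 enriched clusters, RBM5 had 215 and 10, and ARAP1 had 213 and 11. RBM5 held 1 reproducible peak, as did UPF1, and ARAP1 held none.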

How the data were processed

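RBM17 eCLIP of K562 cells was deposited for 2 replicates, numbered here as in the sample descriptions, whereas the titles number them 2 and 3. The authors trimmed reads with cutadapt, aligned them with STAR, both named in the submitters' processing notes, and used the eCLIP pipeline version 0.4.0, with read lengths of 75 bp. The build is not named in the labels, and positions reaching 249211724 on chromosome 1 place it in hg19. Each cluster of replicate 1 was deposited with its −log10 p, which stops at 400, and its log2 fold against the input. Clusters of replicate 2 were deposited as the peak caller wrote them, with a p-value of at most 0.05, the gene and the number of reads, and were not compared with the input. A deposited peak has 1 −log10 p and 1 log2 fold, which the authors derived from both replicates. The depth of replicate 1 is unknown, and the input library has no table here.

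Symbols were matched to Ensembl genes with GENCODE 44, which is in hg38 and gave only gene lengths, exon counts and the 31-base word counts. Overlaps required the same strand and at least 1 bp. Shares have exact Clopper-Pearson intervals and reads exact Poisson intervals. Scripts ran in Python 3.11.15 with scipy 1.17.1, numpy 2.4.6, pandas 2.3.3 and, for plots, matplotlib 3.10.9. The overlap code was tested on simulated intervals. No test between samples was made.

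All 9 members were named. For each member the clusters described singly were its peaks, its replicate 2 cluster with the most reads and its replicate 1 cluster with the largest fold among those shared with replicate 2. Clusters singled out beyond these were chosen after their values were seen, among them the abutting clusters, the largest unshared folds, a second cluster of SMG5, and the groups of enriched clusters. Some items that these rules named are not reported here. The members and gene lists were chosen with earlier results of these data known. The alternatives were other thresholds of fold, p and reads, other overlap and strand rules, other length scalings, and leaving out a replicate.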

Additional observations from a re-analysis of the deposited data

How the results depend on the processing

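Of 33 alternative settings, 17 moved the value. A count moved when it changed by over 1.5 times, and a share or median when it left the interval of its main value. The order of the members moved when it was not the same, and unscaled reads were labelled as moved without this check. Among the 17 are the opposite strand, a control, and subsets of the reads, which can only lower a total. The UPF1 peak was lost when peaks needed a log2 fold of at least 4 or a −log10 p of at least 5, leaving 0 members with a peak under either, and 2.33% and 2.35% of all genes. The 23 enriched clusters became 8 with a fold of at least 4 and 13 with a −log10 p of at least 5, in UPF1 and SMG1 under both. With a fold of at least 2 they became 34, and UPF2 joined as the third gene. Of all genes, 9.58% had an enriched cluster with a fold of at least 4. The share was 10.2% with a −log10 p of at least 5 and 19% with a fold of at least 2. The share of replicate 2 clusters met by replicate 1, 41.5%, became 32.0% when 50% of the cluster had to overlap, 0% on the opposite strand, 69.0% for clusters with at least 10 reads, 66.7% for the 6 clusters with p at most 1e-10 and 30.9% without UPF1 and SMG1. Over all genes the share was 32% at the main setting, 25% with an overlap of 50% and 0.02% on the opposite strand. It was 67% for clusters with at least 10 reads and 78.5%, above that of the factors, with p at most 1e-10. The converse share, 33.2%, became 25.1% with an overlap of 50%, beside 22.7% over all genes, and 0% on the opposite strand. The median fold was 1.51 without UPF1 and SMG1. The 1189 reads became 363 in clusters with at least 10 reads and 96 in clusters with p at most 1e-10. The order of the 8 members by reads per kb of gene had a Spearman rho of 0.976 with that per kb of span, 0.762 with that per kb of mRNA and 0.714 with unscaled reads. Leaving out either replicate left 8 members with clusters, which the spans, taken from replicate 2, allow at most. Leaving out UPF1 and SMG1, clusters wholly inside the span, and unscaled reads were settings added after the data were seen, and the cause of these changes was not tested. No paired analysis was possible because no result comes from a test and the 2 replicates are of 1 group. Depth limits weak sites most, since a cluster of fewer than 3 reads is not listed in replicate 2.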

Other observations

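Clusters were also listed at the SMG1 pseudogenes, and whether their reads came from these or from SMG1 was not tested. Of 7 SMG1P genes, 6 had replicate 2 clusters, 45 in all with 261 reads and 61 replicate 1 clusters. SMG1P3 held 134 of these reads in 21 clusters, and its 35 replicate 1 clusters had a median log2 fold of 0.77. One reproducible peak lay in the span of SMG1P3, at chr16:21531553-21531649, with a log2 fold of 3.58 and a −log10 p of 8.07, although SMG1 itself had no peak. No pseudogene of UPF3A had a cluster. How reads that fit both SMG1 and a copy were placed is not given in the sources used here.

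Many replicate 1 values recurred. The 247 replicate 1 clusters of the NMD factors held 100 distinct pairs of fold and −log10 p, and 217 of them, or 87.9%, had a pair seen at least 100 times in replicate 1, beside 85.6% over all its clusters. Of the 23 enriched clusters, 10 or 43.5% had such a pair. The most frequent pair, a log2 fold of 1.77 with a −log10 p of 0.46, occurred in 13 clusters of 4 factors, so single folds of weak clusters distinguish few levels.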
